A study of Rattus norvegicus with 2 samples.

Results

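Long non-coding RNAs (lncRNAs) that lie in a single exon and are at least 1000 bases long were examined in the myocardium of spontaneously hypertensive rats, a laboratory strain in which hypertension arises without treatment and the heart enlarges. A row of the lncRNA tables was taken as a member when the end minus the start of its coordinates differed from its listed length by at most 5 bases and its length was 1000 bases or more. Of 18361 lncRNAs listed in at least 1 library, 2315 (12.6%) met this rule, and of 9489 single-exon lncRNAs of any length 24.4% did. The rule uses coordinates and length, not levels.

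All rats were of this hypertensive strain and none was a normotensive control. One group received KXH, the high dose of the herbal Jiangya Kangxian formula (KXF), at 9.6 g/kg into the stomach. The other received distilled water. Both were treated for 12 weeks, and total RNA of the frozen myocardium was sequenced. The labels give neither age nor the number of animals behind a library.

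There was 1 library per group, so no test between the treatments was possible, and "higher" and "lower" describe these 2 libraries. The lncRNA tables held 2.93 M reads for KXH and 3.18 M for water (M, 1000000). The protein-coding reads added up to 14.1 M and 15.1 M. The cardiac myosin gene Myh6 stood at 4794 RPKM in KXH and 4824 RPKM in water (reads per kilobase per 1000000 reads of the protein-coding table), and the liver transcript Alb at 0.391 and 1.36 RPKM. A ratio is given with its exact 95% Clopper-Pearson interval, which covers counting error only. It leaves out variation between animals, and the reads carry no molecular identifiers, so they may not be independent molecules. In bulk tissue, fewer cells of a type and less RNA per cell cannot be told apart.

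LncRNAs are transcripts without a long open reading frame. Some act in the nucleus as scaffolds of nuclear bodies or as regulators of neighbouring genes, and others have no known role. Most lncRNA genes are spliced, though 9489 of the 18361 lncRNAs listed here were single-exon by the coordinate rule. A spliced transcript carries junctions that fix its strand and set it apart from unspliced RNA, whereas a single-exon model lacks them, so that fragments of introns, extended 3′ ends of protein-coding genes and traces of genomic DNA are harder to separate from it. Whether the members overlap protein-coding genes was not tested, since no annotation of the tables' assembly was used here. The tables name members by identifier only, so no role is given for any of them.

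Most members were contiguous to the base. For 2309 of them the length equalled the span of the coordinates, counted with both ends. For the other 6 the end minus the start exceeded the length by 4 or 5 bases, the widest being NONRATT020146.2, at chr4:8256607-8258211, with 409 reads in KXH and 533 in water. Just outside this limit, NONRATT012063.2 (chr16:71121199-71123494) exceeded its length by 6 bases and had 94 and 99 reads. At the limit of length, the members NONRATT022128.2 (99 and 125 reads) and NONRATT028719.2 (52 and 47 reads) were 1000 bases long. The single-exon lncRNAs NONRATT018748.2 (14 and 23 reads) and NONRATT011129.2 (4 and 0 reads), at 999 bases, fell outside.

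Member lengths had a median of 1531 bases, quartiles of 1219 and 2040, and a maximum of 5462 bases. There were 611 members of at least 2000 bases and 125 of at least 3000. The longest was NONRATT001117.2 (chr1:177709339-177714800), at 548 RPKM in KXH and 517 in water. It was well expressed in both libraries, 1.06-fold higher in KXH (95% interval 1.03 to 1.09). The next longest with at least 100 reads, NONRATT015297.2 (5215 bases, chr2:144934177-144939391) and NONRATT001969.2 (4927 bases, chr1:13832310-13837236), lay between 3.33 and 5.01 RPKM, with intervals that include 1. Length and mean RPKM had a Spearman coefficient of 0.31 across the 2315 members, which share 2 libraries. Only rows with a read are listed, and a longer row collects more reads at a given level.

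The members held 945152 reads in KXH, 32.3% of that lncRNA table (32.2% to 32.3%), and 1027655 in water, also 32.3% (32.3% to 32.4%). These shares rested on few members. A single one, NONRATT033931.1, took 18.5% of the members' reads in KXH and 21.5% in water. The 10 with most reads took 33.7% and 33.2%, and the first 62 members in KXH and 70 in water held 50% of the reads.

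Reads were listed in both libraries for 2249 members, in KXH alone for 26 and in water alone for 40. KXH thus listed 2275 of the 2315 members and water 2289. Of all 18361 lncRNAs, KXH listed 17076 and water 17486, so more rows were listed in water over all lncRNAs too. A member had a median of 219 reads over both libraries, with quartiles of 69 and 607. At least 100 reads were found for 1575 members (68.0%), against 32.0% of all lncRNAs. At least 1000 reads were found for 358, and fewer than 10 for 164.

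Levels are compared between transcripts per length, as RPKM of the lncRNA tables. The median over members was 22.0 RPKM in KXH (quartiles 7.68 and 53.0) and 23.3 RPKM in water (7.96 and 54.2). Single-exon lncRNAs under 1 kb had medians of 7.09 and 7.77 RPKM, and spliced lncRNAs spanning under 10 kb had 10.1 and 10.6 RPKM. Over all lncRNAs the medians were 9.65 and 10.3 RPKM. The members' median thus lay above that of each other class in both libraries, while their quartile range overlapped the others. These values describe the annotated rows and were not tested.

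**Figure D1:**
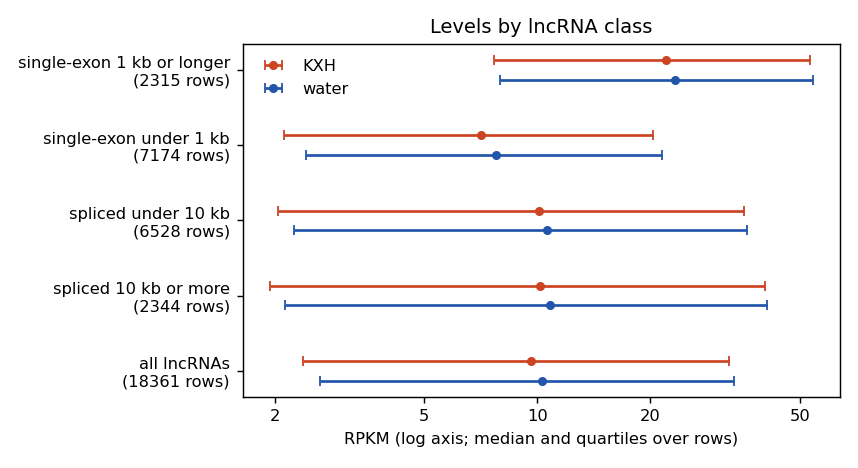
RPKM (log axis) by class of lncRNA in the KXH and water libraries; points are medians and bars run from the lower to the upper quartile over rows. The single-exon lncRNAs of 1 kb or longer have the highest median in both libraries (22.0 and 23.3 RPKM), and all quartile ranges overlap.

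The 8 most abundant members, by mean RPKM, were read from end to end in both libraries, with coverage (the deposited percent of bases covered) of 98.1% or more. NONRATT033931.1, at chr1:221154561-221156910, stood at 25447 RPKM in KXH (175168 reads) and 29525 RPKM in water (220433 reads). It was 1.16-fold lower in KXH (1.15 to 1.17). It overlaps 2 spliced rows, NONRATT003469.2 at 20352 and 21723 RPKM and NONRATT003470.2 at 15144 and 16864 RPKM. NONRATT003466.2, a shorter single-exon lncRNA 833 bases away, was at 22301 and 24439 RPKM, and its ratio was 0.913 (0.902 to 0.923). This stretch of chromosome 1 was thus abundant over several rows, each lower in KXH. A further abundant member of the same region, NONRATT003473.2 (chr1:221200983-221204272), had 2326 RPKM in KXH and 2375 in water. Its ratio was 0.979 (0.962 to 0.997) and lies above 1 when all ratios are centred on the median of all lncRNAs or scaled by a trimmed mean.

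NONRATT030152.2 (chr9:81190189-81194655) stood at 2522 RPKM in KXH and 2545 in water. Its ratio was 0.991 (0.976 to 1.01) over 69124 reads. This call depended on the scaling: the log2 ratio was -0.013 by the table totals, -0.025 with combined totals, 0.031 with median centring and 0.040 with trimmed-mean scaling. NONRATT024061.2 (chr6:24181526-24184216) was at 1993 and 1721 RPKM, 1.16-fold higher in KXH (1.13 to 1.18). NONRATT008436.2 (chr13:88004504-88006320) was at 1018 and 1227 RPKM, 1.21-fold lower (1.16 to 1.25). NONRATT004023.2 and NONRATT000138.2 were within 1.04-fold of the water level. Apart from NONRATT031966.1, described next, the abundant members therefore lay within 1.21-fold of the water library.

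NONRATT031966.1 was the exception. This member of 1872 bases at chr14:46643222-46645093 stood at 6646 RPKM in KXH (36444 reads) and 576 RPKM in water (3424 reads). It was 11.5-fold higher in the KXH library (11.1 to 12.0), the widest difference of any member with at least 100 reads. It made up 1.24% of the KXH lncRNA table and 0.108% of the water table. Coverage was 99.6% and 98.1%, so reads spanned nearly the whole row in both. No other lncRNA was listed within 50000 bases of it. Because of this row, members on chromosome 14 held 5.64% of the members' reads in KXH and 2.09% in water. With 1 library per group, an animal that differs and an effect of the formula cannot be told apart.

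**Figure D2:**
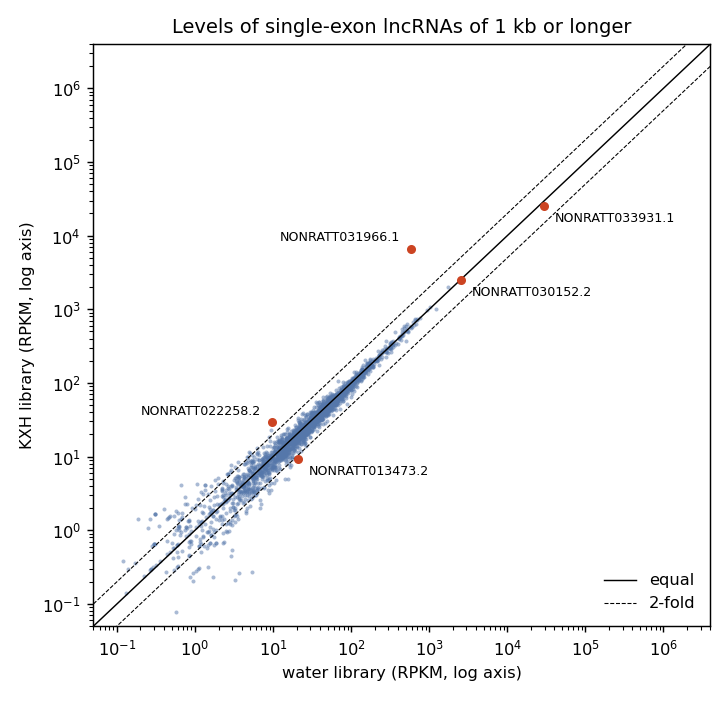
RPKM of each member with reads in both libraries, water on the x axis and KXH on the y axis, both log axes; the solid line marks equal levels and the dashed lines 2-fold. Members lie along the line of equal levels, spreading at low RPKM, and NONRATT031966.1 stands alone at 6646 against 576 RPKM.

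The 2 libraries were then set side by side, member by member. Across the 2235 members with a mean of at least 0.5 RPKM, log2(RPKM + 0.1) in both libraries had a Spearman coefficient of 0.986 and a Pearson coefficient of 0.968. These points share 2 libraries and are not replicates. The other 80 members lay under that mean. On the same scale the members' log2 ratios of KXH over water had a median of -0.046, beside -0.044 over all 17071 lncRNAs that passed. Of the members, 949 lay above 0 (42.5%) and 1286 below. Over all lncRNAs that passed, 7873 lay above 0 (46.1%) and 9198 below. Placing members without reads in a library at a floor of 3 reads leaves the members' median at -0.046 and gives -0.017 over all lncRNAs. The members' median is thus near that of all lncRNAs on the first scale, and scaling by a trimmed mean turns it to 0.007.

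On the log2(RPKM + 0.1) scale, 58 of the 2235 members (2.6%) were 2-fold or more higher in KXH, where 8.18% of all lncRNAs were, and 62 (2.77%) at least 2-fold lower, where 10.9% of all lncRNAs were. Members have more reads than other rows, so these shares are not at equal depth. Among the 1575 members with at least 100 reads, 5 were at least 2-fold higher by RPKM ratio and 1 at least 2-fold lower (0.317% and 0.0635%). Of all 5870 lncRNAs with as many reads, 0.153% were higher and 0.256% lower. Within this group 1177 members (74.7%) lay within 1.2-fold of the water level and 1521 (96.6%) within 1.5-fold, beside 71.2% and 95.6% of all lncRNAs with as many reads.

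The counting interval lay above 1 for 144 of the 2235 members (6.44%, beside 4.97% of all lncRNAs that passed) and below 1 for 272 (12.2%, beside 6.94%). This split depended on the scaling. With ratios centred on the median of all lncRNAs it was 222 above and 182 below, beside 1156 and 914 of all 17071 lncRNAs that passed. With trimmed-mean scaling it was 241 above and 174 below, beside 1211 and 882. Of the members' intervals that left out 1, 55.0% and 58.1% lay above it under these scalings. Over all lncRNAs 55.8% and 57.9% did, near the members' split. With the table totals the splits were less alike: 34.6% of the members' intervals lay above 1, beside 41.8% over all lncRNAs. With totals of both kinds of table combined, 132 members lay above and 299 below, beside 791 and 1271 of all lncRNAs. The shares above 1 were then 30.6% and 38.4%. Relative to the table totals, a shift of 0.044 to 0.053 on the log2 scale thus set which side held more members. Among members with at least 100 reads, 112 intervals lay above 1 (7.11%, beside 8.59% of all lncRNAs with as many reads) and 231 below (14.7%, beside 11.5%).

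**Figure D3:**
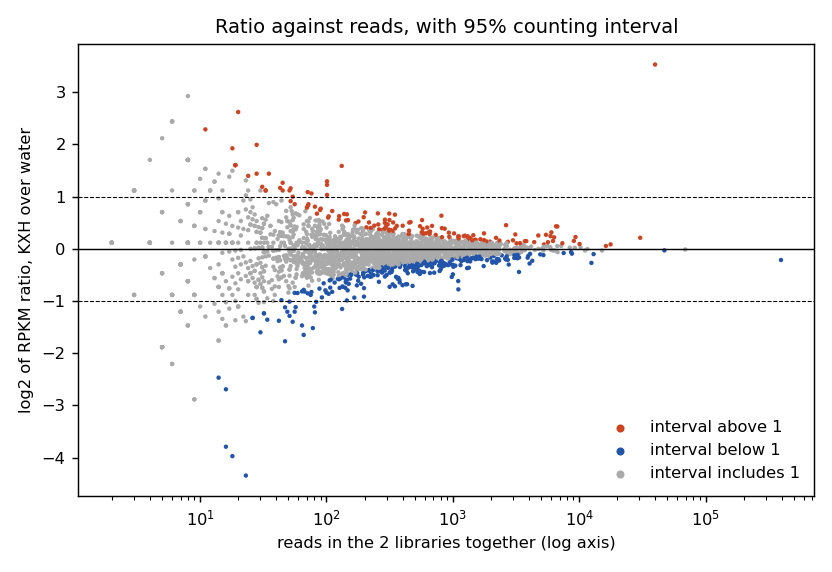
Log2 of the RPKM ratio of KXH over water against the reads of both libraries together (log axis), 1 point per member with reads in both; red and blue mark a 95% counting interval above and below 1, grey one that includes 1. Ratios narrow toward 0 as reads rise, except for NONRATT031966.1 at 39868 reads.

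Ratios spread less in classes with more reads. Of the 98 members with under 10 reads and reads in both libraries, log2 ratios had a robust SD (scaled from the quartile range) of 1.29, where the median counting SD from the reads alone was 1.23. From 10 to under 100 reads these were 0.57 and 0.44, from 100 to under 1000 reads 0.25 and 0.17, and for 1000 reads or more 0.12 and 0.069. From 10 reads up, the spread thus exceeded the median counting SD of its class, by 1.79 times at 1000 or more. Under 10 reads the counting SD is a poor approximation, and members without reads in 1 library were left out. No excess is therefore read from that class. Over all 899 lncRNAs with at least 1000 reads the robust SD was 0.14 and the counting SD 0.068. The interval of a member with 10 to under 100 reads spanned 3.59-fold from end to end at the median, and that of a member with at least 1000 reads 1.21-fold.

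Among the 358 members with at least 1000 reads, 1 was at least 1.5-fold higher in KXH and 2 at least 1.5-fold lower, beside 0.445% of all lncRNAs of that depth in each direction. The member that was higher is NONRATT031966.1. The 2 lower ones, named after their values were seen, were NONRATT025875.2 and NONRATT022097.2. NONRATT025875.2 (chr7:70580275-70582825) stood at 51.8 RPKM in KXH and 88.7 in water, 1.71-fold lower (1.51 to 1.94), with 99.96% of its bases covered in both. NONRATT022097.2 (chr5:24416433-24418598) was at 65.3 and 100.1 RPKM, 1.53-fold lower (1.36 to 1.74). Below NONRATT031966.1, the highest ratios of this depth were 1.37 for NONRATT024987.2 (chr6:65086483-65088944), 1.35 for NONRATT010844.2 (chr15:30541404-30544743) and 1.34 for NONRATT000217.2 (chr1:53929120-53931728).

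After NONRATT031966.1, the highest ratios among members with at least 100 reads came from rows of 101 to 255 reads. NONRATT022258.2 (chr5:63821761-63822890) had 97 reads in KXH and 35 in water, at 29.3 and 9.75 RPKM. It was 3.01-fold higher (2.02 to 4.56), and its coverage was 97.7% in KXH and 83.3% in water. NONRATT024368.2 (chr6:93750099-93751129) had 70 and 31 reads and was 2.45-fold higher (1.58 to 3.87), with about 60% of its bases covered in each library. NONRATT000710.2 (chr1:101688781-101690849) had 69 and 32 reads, 2.34-fold higher (1.52 to 3.68). NONRATT005843.2 (chr10:75029051-75030275) had 66 and 35 reads, 2.05-fold higher (1.34 to 3.18). NONRATT004452.2 (67 and 44 reads), NONRATT001985.2 (121 and 81) and NONRATT000110.2 (152 and 103) followed at 1.65-fold, 1.62-fold and 1.60-fold. All 8 intervals lay above 1. These members were picked for their high ratios and the intervals are not adjusted for that choice, so this adds no support.

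Listed rows near these members had ratios on both sides of 1. NONRATT004451.2, a member 37 bases from NONRATT004452.2, had 87 and 96 reads and a ratio of 0.983 (0.727 to 1.33). NONRATT024367.2, a spliced row that overlaps NONRATT024368.2, had 4 and 7 reads. NONRATT000709.2, which overlaps NONRATT000710.2, had 5 and 7 reads, and the member NONRATT000711.2, 10079 bases away, had 488 and 466 reads with a ratio of 1.14 (0.998 to 1.29). The spliced NONRATT000714.2, 11716 bases from NONRATT000710.2, had 17 and 2 reads and a ratio of 9.22 (2.19 to 82.3). It lies within the coordinates of NONRATT000711.2, and without strand the reads of these overlapping rows cannot be told apart. In the other direction, NONRATT005575.2, 26401 bases from NONRATT004452.2, had 23 and 71 reads and a ratio of 0.351 (0.209 to 0.569). NONRATT022256.2, 38240 bases from NONRATT022258.2, had 6 and 43 reads and a ratio of 0.151 (0.053 to 0.357).

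At the lower end, NONRATT013473.2 (chr18:55585582-55587010) had 39 reads in KXH and 94 in water, at 9.32 and 20.7 RPKM. It was 2.22-fold lower (1.51 to 3.32), the one member of at least 100 reads past 2-fold in that direction. NONRATT028251.2 (chr8:7212430-7214080) had 46 and 99 reads, 1.98-fold lower (1.39 to 2.88). Its neighbour NONRATT028250.2, a member 255 bases away, had 51 and 56 reads and a ratio of 0.988 (0.662 to 1.47). NONRATT030783.2 (chrX:124903603-124904934) had 54 and 112 reads, 1.91-fold lower (1.37 to 2.70). It overlaps NONRATT030781.2, at a ratio of 0.729 (0.544 to 0.972), and NONRATT030784.2, at 1.74 (1.06 to 2.90), and without strand reads of overlapping rows cannot be told apart.

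NONRATT018812.2 (chr3:153208978-153210824) had 65 and 133 reads, 1.89-fold lower (1.39 to 2.58). NONRATT019864.2 (chr3:152941343-152943780) had 35 and 69 reads, 1.82-fold lower (1.19 to 2.81), and the spliced NONRATT019865.2 that overlaps it had 213 and 199 reads. NONRATT020266.2, NONRATT028785.2 and NONRATT004573.2 were 1.79-fold, 1.77-fold and 1.74-fold lower. All 8 intervals lay below 1, and each rested on fewer than 200 reads. These members were picked for their low ratios, again without adjustment of the intervals.

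**Figure D4:**
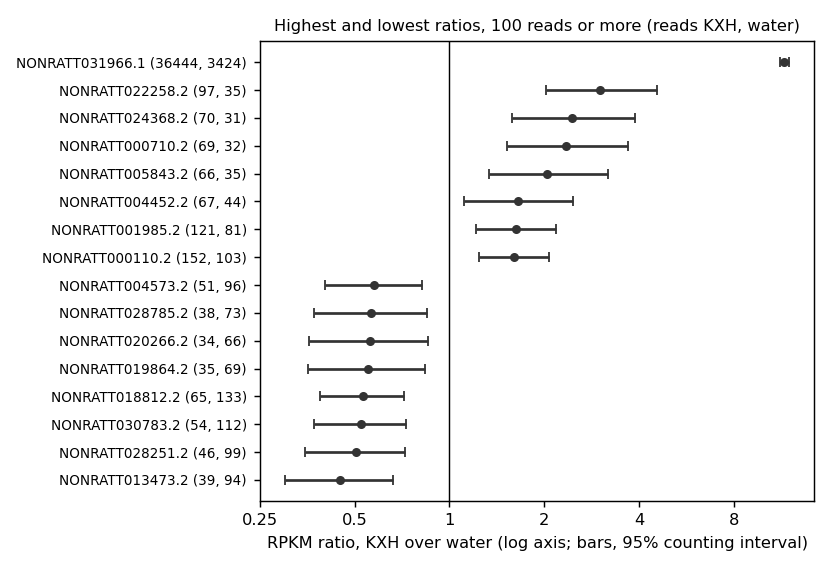
RPKM ratio of KXH over water (log axis) for the 8 highest and 8 lowest members with at least 100 reads, with reads in KXH and water after each name; bars are 95% counting intervals. NONRATT031966.1, at 11.5, lies apart from the next highest at 3.01, and the lowest is 0.45.

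Members with fewer than 100 reads reached wider ratios on weaker support. Of those with reads in both libraries, 7 had a ratio at least 4-fold from 1 and an interval that leaves out 1. These 2 higher and 5 lower members were picked after seeing their values. The share over all lncRNAs of that depth was not taken, so the count is not read as a trait of the members. NONRATT029869.2 (chr9:28440337-28441613) had 1 read in KXH and 22 in water, a ratio of 0.049 (0.0012 to 0.305). NONRATT014106.2 had 1 and 17 reads, NONRATT024599.2 had 1 and 15, NONRATT006327.2 had 2 and 14, and NONRATT021586.2 had 2 and 12. On the higher side NONRATT015632.2 had 17 and 3 reads, a ratio of 6.15 (1.78 to 32.7), and NONRATT005343.2 had 9 and 2. Coverage of the 5 lower rows in water ran from 60.3% to 81.1%, so those reads lay over most of each row. On the higher side, reads in KXH covered 39.3% of NONRATT015632.2 and 60.0% of NONRATT005343.2.

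No member listed in 1 library alone had more than 7 reads. NONRATT004761.2 (chr10:82130133-82131318) had 7 reads in KXH and 0 in water. Against a floor of 3 reads in the water library it was at least 2.53-fold higher. The counting error of the KXH reads is not part of that bound. With it, the exact interval begins at 1.56. Those reads covered 18.6% of the row. NONRATT006332.2 (chr10:108682339-108683723) had 0 reads in KXH and 7 in water, at least 2.15-fold lower against a floor of 3 reads in KXH, with an exact interval from 1.33-fold lower. NONRATT015052.2 (6 reads in KXH) and NONRATT030201.2 (6 in water) had floor bounds of 2.17-fold and 1.84-fold, with exact intervals from 1.28-fold and 1.09-fold. For NONRATT020620.2 (5 reads in KXH) and NONRATT019363.2 (5 in water) the counting interval includes 1, so a difference was not detectable at this depth. The interval of NONRATT020620.2 begins at 0.994 and leaves out 1 with median centring or trimmed-mean scaling.

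Coverage tells what part of a contiguous row has reads, not how evenly they lie along it, and it rises with reads. Among members with at least 20 reads in a library, the median coverage was 96.4% in KXH (1880 members) and 97.0% in water (1914), and 77.3% and 79.5% of these had at least 90% of their bases covered. Over all lncRNAs that reach the same minimum of 20 reads the medians were 94.4% and 94.8%. Members have more reads than other rows, so these medians are not at equal depth. Members with 1 read in a library had 150 to 300 bases covered in KXH and 150 to 296 in water, so 1 counted read covers about that length. At 1000 reads or more in a library the median coverage was 99.6% in KXH and 99.5% in water. The most abundant row, NONRATT033931.1, is deposited at 100.09% in both, just above what its length allows.

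A few members with many reads were covered only in part. Among those with at least 200 reads in each library, NONRATT000017.2 (chr1:5648748-5649796) had 245 and 246 reads, with 44.4% of its bases covered in KXH and 59.8% in water. NONRATT017510.2 (chr20:3242492-3246976) had 263 and 359 reads over 59.1% and 47.0% of its bases. NONRATT021349.2 (chr4:66443477-66444595) had 998 and 1237 reads over 57.5% and 53.1%. It overlaps the spliced NONRATT021350.2, with 2215 and 2606 reads. NONRATT000217.2, named above for its ratio, had 3717 and 2998 reads over 60.9% and 66.0% of its 2609 bases. For such rows the RPKM, which divides by the whole length, averages a read stretch and an unread one.

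Coverage differed little between the libraries. Of the 1167 members with at least 100 reads in each, 840 (72.0%) differed by at most 2 percentage points, and 36 by more than 10. The widest differences, chosen after their values were seen, went both ways. NONRATT022300.2 (chr5:76212601-76213799) had 191 reads over 89.9% of its bases in KXH and 146 over 42.7% in water, and was 1.42-fold higher (1.14 to 1.77). NONRATT018703.2 (chr3:145553867-145554969) had 187 reads over 22.9% in KXH and 224 over 61.8% in water, with a ratio of 0.905 (0.742 to 1.10). In the latter, reads differed less than the counting error while the stretch they covered differed.

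**Figure D5:**
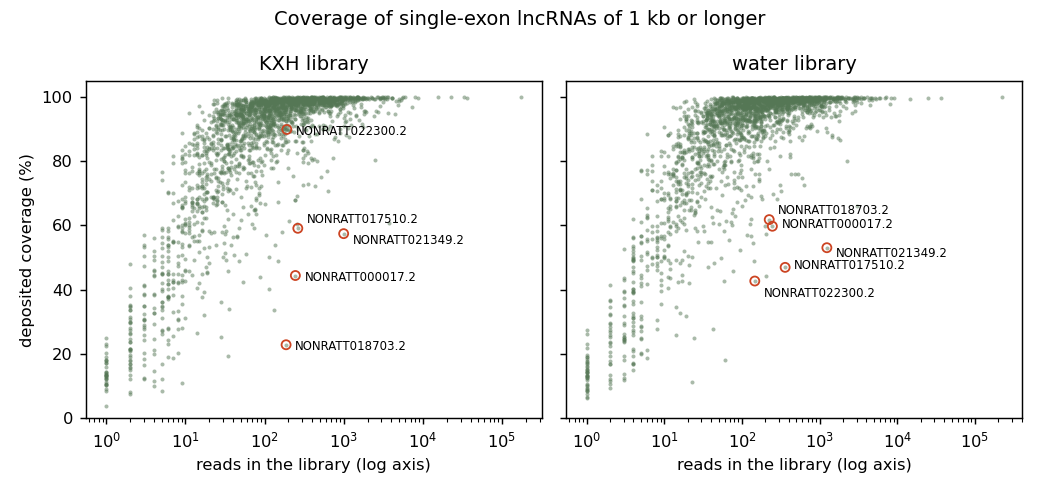
Deposited coverage (percent of bases) of each member against its reads in that library (log axis), KXH on the left and water on the right; circles mark the 3 members of lowest coverage with at least 200 reads in each library and the 2 whose coverage differed most. Coverage climbs with reads toward 100%, and the circled members lie under that trend, except NONRATT022300.2 in KXH, at 89.9%.

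Longer members had more reads and narrower ratios. Those of 1000 to under 1500 bases had a median of 113 reads and a robust SD of log2 ratios of 0.35, and those of at least 3000 bases a median of 1251 reads and an SD of 0.15. Median levels went from 14.9 RPKM in KXH and 15.3 in water in the shorter class to 56.8 and 60.0 RPKM in the longer. Among the 358 members with at least 1000 reads, the median log2 ratio was 0.04 from 1000 to under 1500 bases, -0.012 from 1500 to under 2000, -0.024 from 2000 to under 3000 and -0.028 from 3000 bases. Length and ratio had a Spearman coefficient of -0.13 across these members and -0.11 across all 899 lncRNAs of that depth, as a description of rows that share 2 libraries.

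Members were found on each of 21 chromosomes, from 273 on chromosome 1 to 38 on chromosome 20. They made up 8.17% of the listed lncRNAs of chromosome 20 and 15.5% of those of chromosome 18. The median log2 ratio of members with a mean of at least 0.5 RPKM ran from -0.11 on chromosome 9 (95 members) to 0.003 on chromosome 5 (150 members), so no chromosome had a median more than 0.12 from 0. Chromosome 1, which holds NONRATT033931.1, had 30.1% of the members' reads in KXH and 33.0% in water.

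Other listed lncRNAs overlapped 331 members (14.3%), and 48 members overlapped another member. The nearest other row was within 1000 bases of 825 members and within 10000 bases of 1412 (61.0%). Overlapping members had a median of 19.8 RPKM in KXH and 20.9 in water, and those that overlap no row 22.4 and 23.7. Their median log2 ratios were -0.049 and -0.046, so leaving out overlapping rows moved the median by less than 0.01.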

How the data were processed

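Per the file headers, the deposited lncRNA tables give, for each transcript, its coordinates, a count of unique reads, a length, a percent coverage and an RPKM, and the protein-coding tables the same without coordinates. The deposited counts sum to the number in the column name, and the deposited RPKM was recomputed exactly from count, length and that sum, so levels of the 2 kinds of table are not on a common scale. Bowtie 0.12.2 and rn6 are named, without a role, per the submitters' processing notes. How reads were counted, with what annotation, strand setting and filters, is not given in the sources used here. The tables name no assembly for their coordinates. Per the labels' protocols, libraries were made from Trizol-extracted total RNA with a TruSeq kit.

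The tables were joined on the identifier, and an absent row was taken as 0 reads. Only rows with at least 1 read are listed. Log2 ratios use RPKM + 0.1 and rows whose mean is 0.5 RPKM or more, and fold values have nothing added. Clopper-Pearson intervals were taken on the KXH share of each row's reads and turned into ratios with the table totals. Named members are the 8 of highest mean RPKM, the 8 highest and 8 lowest ratios with at least 100 reads, and the 3 per direction with most reads in 1 library alone. They also take in the 3 longest with at least 100 reads, the 3 of lowest coverage with at least 200 reads in each library, and the rows at the limit of length. Rows beside them, those at the limit of the coordinate rule and others said to be so were added after values were seen. Members and choices were set with earlier results of these data known. No identifier matched the RefSeq table, so no sequence is shown. The ratio and interval steps were run on simulated reads with known fold changes. Those reads held counting error alone, as the intervals assume, so this checks the calculation and not how the intervals hold in real libraries. Alternatives were other pseudocounts, filters, scalings, intervals, read minimums and limits of the rule. Calculations used scipy 1.17.1, pandas 2.3.3 and numpy 2.4.6 under Python 3.11.15, and plots matplotlib 3.10.9.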

Additional observations from a re-analysis of the deposited data

How the results depend on the processing

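No paired analysis was possible because there is 1 library per group. The limits of the rule set the number of members: a length of at least 2000 bases leaves 611 and one of at least 500 bases gives 6946, while a tolerance of 1 or 50 bases gives 2309 or 2335. Without the 3 most abundant members, the share of lncRNA reads was 26.1% in KXH and 26.3% in water. The median log2 ratio was -0.0017 with median centring, -0.058 with totals of both kinds of table combined, -0.040 over members with at least 100 reads (added after seeing the data) and 0.0066, on the other side of 0, with trimmed-mean scaling. Other pseudocounts and filters moved it by less than 0.005. A pseudocount of 1 left 22 members 2-fold higher and 26 lower, no filter gave 97 lower, and a limit of 1.5-fold gave 120 higher and 169 lower. Among members with at least 50 reads 9 were 2-fold higher and 12 lower, and with at least 200 reads 1 and 0. Shares over all lncRNAs were not taken at these settings of pseudocount, filter, fold and reads. These counts therefore show only how far the members' numbers move. Intervals above 1 numbered 222 with median centring and 241 with trimmed-mean scaling, and those below 1 numbered 174 with the latter. Over all 17071 lncRNAs that passed, these numbers were 1156, 1211 and 882. Median coverage was 94.7% in KXH and 95.7% in water with no read minimum, 97.5% and 97.8% at 50 reads, and 98.7% and 98.8% at 200 reads. With median centring and trimmed-mean scaling, NONRATT003473.2 turned to log2 ratios of 0.014 and 0.023, and NONRATT030152.2 to 0.031 and 0.040. Of 240 values of the 40 named members under these scalings and pseudocounts, 230 kept their direction, with no change in whether the interval left out 1. In the same direction, 5 came to leave out 1 and 1 came to include it, and 4 turned to the other direction. A pseudocount cannot turn a direction and its intervals were not recomputed, so the 40 values at each pseudocount were fixed in advance. The 40 values with totals that leave out the 3 most abundant members rest on a shift of 0.0026. Each change came from median centring, trimmed-mean scaling or combined totals. Depth limits the 740 members under 100 reads, whose intervals are wide, and 1 library per group limits the whole comparison.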
